A study of Mus musculus with 6 samples.

Results

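The genes described here are 9 members of the Fgf response that act in feedback on, or report, Fgf signalling: the Sprouty genes Spry1, Spry2 and Spry4, the Sprouty-related genes Spred1 and Spred2, the ETS factor genes Etv1, Etv4 and Etv5, and the phosphatase gene Dusp6. They were taken by name out of 21887 protein-coding genes of the mouse, and all 9 were found. A peak was assigned to a gene when its summit lay inside the gene or within 50 kb of either end. Chromatin immunoprecipitation and sequencing (ChIP-seq) was carried out on molar tooth germs and on limb tissue of wild-type mouse embryos of the CD1 stock at stage E13.5 (days of embryonic development), with antibodies to phosphorylated Smad1/5 (pSmad1/5) or to Smad4. The 4 groups were molar pSmad1/5, limb pSmad1/5, molar Smad4 and limb Smad4, with 1 library each, and the 2 further samples are inputs, whose signal was not analysed here. The labels name no separation of epithelium from mesenchyme and do not say how many embryos were pooled. The lists hold no expression values, so the tissue labels could not be checked against marker genes.

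Fgf ligands bind receptor tyrosine kinases that act through Ras and the kinase Erk. Sprouty and Spred proteins damp this pathway between receptor and Erk, Dusp6 removes phosphate from Erk, and Etv1, Etv4 and Etv5 are transcription factors that Fgf signals switch on. In mouse tooth and limb, Fgf signals from the epithelium act on the mesenchyme, and BMP signals, whose nuclear effectors are phosphorylated Smad1 and Smad5 together with Smad4, act in the same tissues. The comparisons ask where pSmad1/5 and Smad4 sites lie around these genes, and whether the sites differ between molar and limb.

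A site upstream of Spry1 was the place where sites of most lists came together, and its sequence is shown for that reason. Of the 4 lists 3 had a summit there, 26226 bp (molar pSmad1/5), 26131 bp (limb pSmad1/5) and 26177 bp (limb Smad4) upstream of the 5′ end of Spry1. No molar Smad4 summit lay within 500 bp, the nearest being 27558 bp upstream of that end. The site lies in the long noncoding RNA gene 4930594O21Rik, whose RefSeq start window on GRCm38.p6 (the assembly behind mm10), chr3:37613663-37613962 on the plus strand, covers it but for the first base of the molar pSmad1/5 peak. Capitals mark bases under a peak of any of these lists, and a lone lower-case base separates the limb Smad4 peak from the limb pSmad1/5 peak.
Spry1 upstream site: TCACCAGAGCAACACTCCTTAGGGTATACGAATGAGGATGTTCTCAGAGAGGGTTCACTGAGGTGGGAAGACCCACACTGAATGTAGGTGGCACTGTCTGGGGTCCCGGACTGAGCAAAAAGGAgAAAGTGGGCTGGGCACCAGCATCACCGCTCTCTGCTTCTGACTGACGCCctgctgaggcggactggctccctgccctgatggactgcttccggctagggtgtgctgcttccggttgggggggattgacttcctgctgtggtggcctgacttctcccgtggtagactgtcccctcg
The molar pSmad1/5 peak ran from 37613662 to 37613767, the limb Smad4 peak from 37613738 to 37613786, and the limb pSmad1/5 peak from 37613788 to 37613836. The molar pSmad1/5 and limb Smad4 peaks overlapped by 30 bp, the sole overlap of at least 1 bp between lists at any of the 9 genes. Their scores (the enrichment score of the authors' peak caller, used to rank peaks within a list) were 2.37 in the molar and 3.06 in the limb pSmad1/5 list, and 4.76 in the limb Smad4 list. The limb Smad4 score was reached by 7.90% of that list, the molar pSmad1/5 score by 74.7% and the limb pSmad1/5 score by 86.6% of theirs. In the whole molar pSmad1/5 list, 535 of 35476 peaks (1.51%) had both a limb pSmad1/5 and a limb Smad4 summit within 500 bp, and at the 9 genes 1 of 27 did. A match to CAGAC, the Smad box, on the reverse strand lay at bases 96 to 100 of the window, under the molar pSmad1/5 and limb Smad4 peaks. Matches to CCGGAAG, the core of an ETS site, lay at bases 212 to 218 and 232 to 238, both on the reverse strand and outside the peaks. CAGAC was present in 49.6% of the 32851 start windows of the RefSeq table and CCGGAAG in 8.86%, counting both strands.

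Every gene had a pSmad1/5 peak in both tissues, whereas Smad4 peaks were missing at some. Molar pSmad1/5 peaks lay at 9 of 9 genes, where 74.9% of protein-coding genes had one. Limb pSmad1/5 peaks also lay at 9 of 9 genes, against 68.0% of protein-coding genes. Molar Smad4 peaks lay at 7 of 9 genes, against 68.0%, and limb Smad4 peaks at 6 of 9, against 71.2%. The exact (Clopper-Pearson) 95% intervals of these shares ran from 66.4 to 100% for each pSmad1/5 list, from 39.99 to 97.2% for molar Smad4 and from 29.9 to 92.5% for limb Smad4. Each of the 4 intervals covers the share of all protein-coding genes. They treat the 9 genes as random draws, although the genes were taken by name, so no comparison with other genes rests on them. All other intervals given cover counting error only. Peaks in all 4 lists were found at Spry1, Spry2, Spry4, Spred1 and Etv4, that is 5 of 9 genes, against 44.4% of protein-coding genes.

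**Figure D1:**
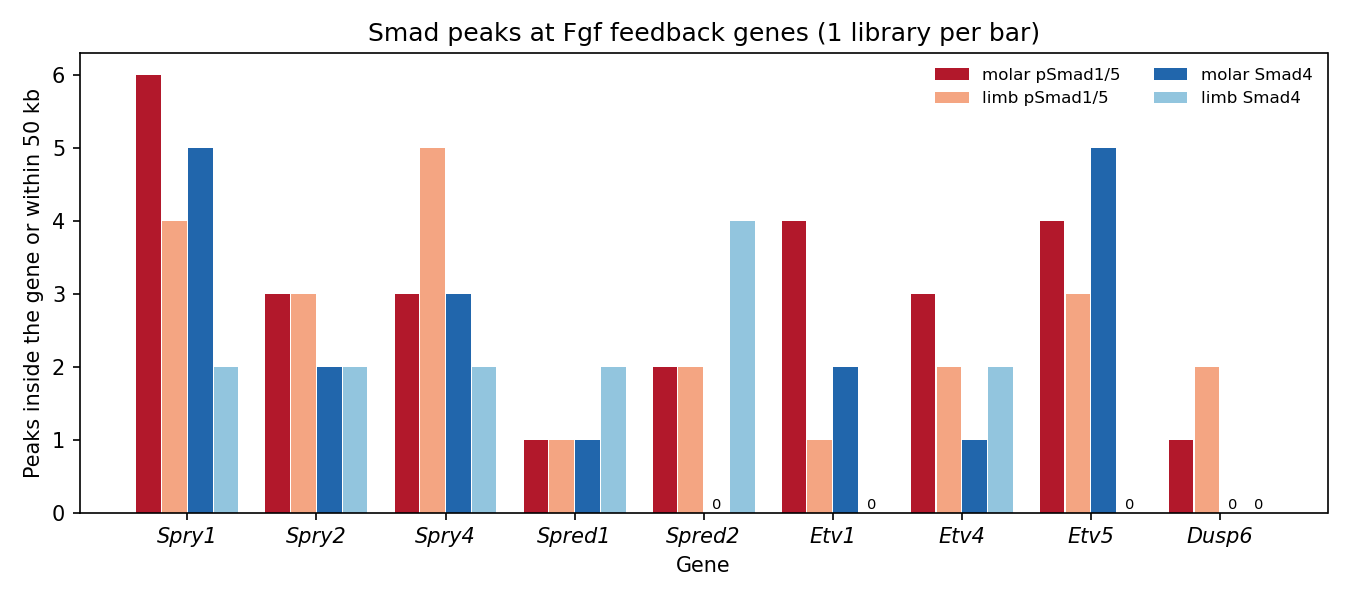
Number of peaks inside each gene or within 50 kb of it (vertical axis) for the 9 genes (horizontal axis); each bar is 1 library, molar before limb for each antibody, and 0 marks a list with no peak. Spry1 has the most peaks in molar pSmad1/5 (6), on a chromosome where that list starts at a score of 2, and Dusp6 has none in either Smad4 list.

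In all, 83 peaks lay at the 9 genes, and for 16 of them another protein-coding gene was the nearest. There were 27 molar and 23 limb pSmad1/5 peaks, and 19 molar and 14 limb Smad4 peaks. Exact Poisson 95% intervals for these counts were 17.8 to 39.3, 14.6 to 34.5, 11.4 to 29.7 and 7.65 to 23.5 in that order, so the intervals of molar and limb overlapped for each antibody. With 1 library per group there is no replicate error to test a tissue difference against. The median gene of the 9 had 3 molar and 2 limb pSmad1/5 peaks and 2 molar and 2 limb Smad4 peaks, where the median protein-coding gene had 2, 1, 1 and 2 in the order molar pSmad1/5, limb pSmad1/5, molar Smad4 and limb Smad4.

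The lists are not equally dense on every chromosome, which touches each comparison of molar with limb. For pSmad1/5, the number of molar peaks divided by that of limb peaks on the chromosomes that hold these genes ran from 0.682 on chromosome 2 to 3.94 on chromosome 3, and for Smad4 from 0.216 on chromosome 11 to 2.19 on chromosome 3. On chromosomes 3, 12, 14 and 16 (Spry1, Etv1, Spry2 and Etv5) molar pSmad1/5 peaks are listed from a score of 2 upwards and limb ones from 3. On chromosomes 2 and 11 (Spred1, Spred2 and Etv4) molar Smad4 peaks are listed from a score of 4 upwards and limb ones from 3. The lists hold no read counts, so read depth is unknown and its part in these numbers was not tested.

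Against the peak density of their own chromosomes, the 9 windows held 1.44 times as many molar pSmad1/5 peaks (counting interval 0.949 to 2.09) and 1.83 times as many limb pSmad1/5 peaks (1.16 to 2.75). For Smad4 the ratios were 1.31 in molar (0.791 to 2.05) and 0.84 in limb (0.459 to 1.41). Windows around genes hold more peaks than the rest of a chromosome in these lists. Against the density in the windows of all protein-coding genes of the same chromosomes, the pSmad1/5 ratios were 0.914 (0.603 to 1.33) in molar and 1.02 (0.649 to 1.54) in limb. For Smad4 they were 1.01 (0.6096 to 1.58) in molar and 0.447 (0.244 to 0.749) in limb. The pSmad1/5 and molar Smad4 density at these genes was thus within counting error of that at other genes of the same chromosomes. The limb Smad4 density was below it on this baseline alone. Against chromosome density the limb Smad4 interval covered 1, both in the 50 kb windows (0.459 to 1.41) and in 10 kb windows (0.55 to 2.28). In the 10 kb windows the limb Smad4 ratio itself was above 1. Without Spry1 the limb pSmad1/5 ratio to chromosome density was 1.59 (0.957 to 2.48), an interval that reaches below 1. These intervals take peaks as independent, so they are too narrow by an unknown amount. In the density over protein-coding gene windows, a peak was counted once for each window that held it. That density is therefore weighted towards stretches crowded with genes, which affects the ratios themselves.

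**Figure D2:**
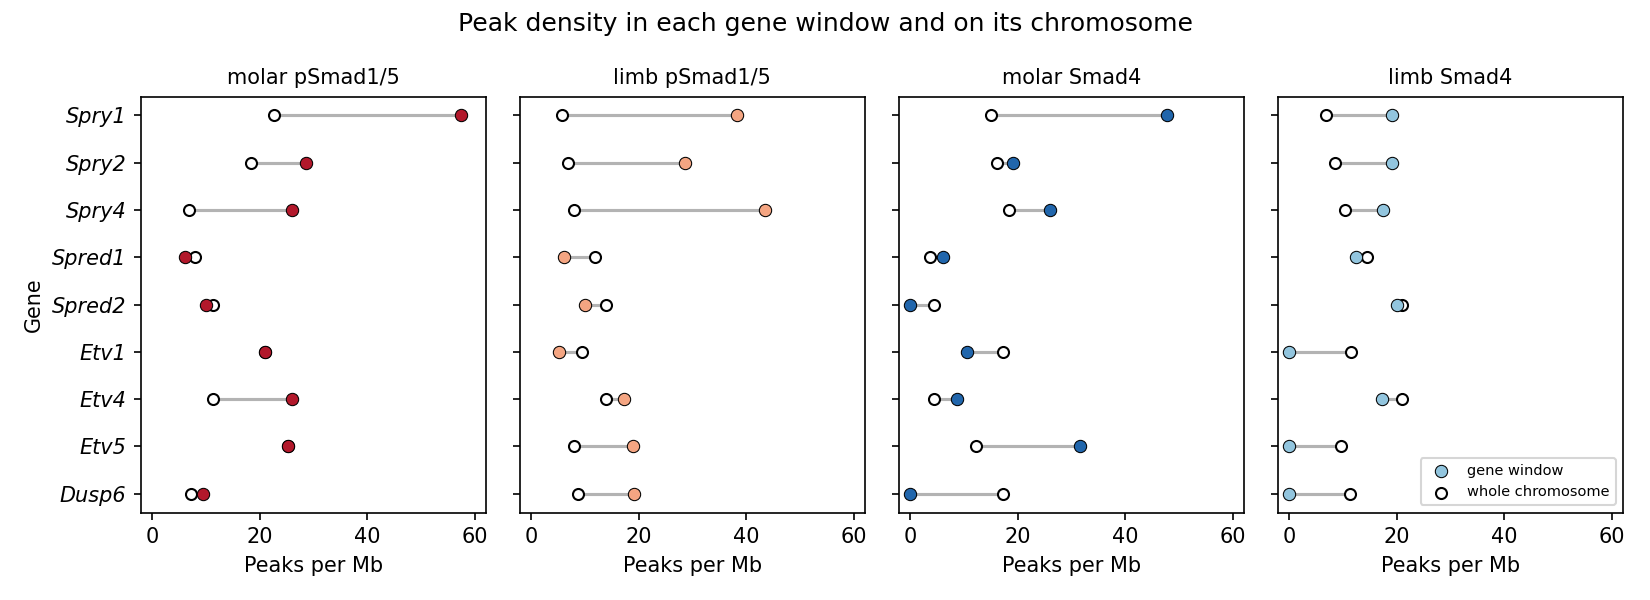
Peaks per Mb in the window of each gene (filled points) and on its whole chromosome (open points), with 1 panel per list and the 9 genes down the page. The Spry windows lie to the right of their chromosomes in each panel, and the limb Smad4 windows of Etv1, Etv5 and Dusp6 are at 0.

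Among the Sprouty genes, which encode inhibitors of the pathway from receptor to Erk, Spry1 carried the most peaks of the 9 genes in all lists together, with 17. The gene lies on chromosome 3, from 37639947 to 37644599, on the plus strand. It had 6 molar and 4 limb pSmad1/5 peaks, and 5 molar and 2 limb Smad4 peaks. All its molar pSmad1/5 peaks but the one of score 3.53 scored below 3, from 2.03 to 2.37. On chromosome 18, which holds Spry4 with 13 peaks in all lists together, molar pSmad1/5 peaks are listed from a score of 3 upwards. The first rank of Spry1 thus rests on scores that are not listed on every chromosome. On chromosome 3, 45.4% of protein-coding genes had at least as many molar and 18.2% at least as many limb pSmad1/5 peaks, and for Smad4 the shares were 22.4% in molar and 48.02% in limb. Molar pSmad1/5 peaks lay 268 and 563 bp downstream of the Spry1 5′ end, with scores of 2.08 and 3.53. Near the other end, inside the gene, summits of limb pSmad1/5 (score 4.15, 1077 bp from that end) and molar Smad4 (score 4.29, 1404 bp) lay 327 bp apart. The peaks 44521 bp (molar pSmad1/5) and 47897 bp (molar Smad4) upstream of Spry1 were nearer to Spata5. No other protein-coding gene had the same 4 peak counts as Spry1.

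Spry2, an inhibitor whose loss in mice lets extra teeth form in the toothless gap in front of the molars, had most of its pSmad1/5 peaks and both limb Smad4 peaks at the gene. It lies on chromosome 14, from 105891947 to 105896819, on the minus strand. It had 3 molar and 3 limb pSmad1/5 peaks, while Smad4 gave 2 in each tissue. The molar pSmad1/5 peaks lay 715 bp (score 3.21) and 13046 bp (2.29) upstream of the 5′ end and 2244 bp inside the gene (3.52). The limb pSmad1/5 peaks lay 2097 bp upstream (score 4.87) and 454 and 1473 bp inside the gene (3.72 and 3.77). The upstream peak was the highest-scoring limb pSmad1/5 peak at any of the 9 genes, and 4.07% of that list scored as high. Limb Smad4 peaks lay 524 and 634 bp inside the gene, and the first of these was separated from the limb pSmad1/5 peak at 454 bp by 2 bp. The molar Smad4 peaks were distal, 21471 and 29179 bp beyond the 3′ end of the gene. Within 1 kb of the Spry2 start there were thus peaks of molar pSmad1/5, limb pSmad1/5 and limb Smad4, and none of molar Smad4. The limb peaks among these had peak-call p-values of 0.00067 (pSmad1/5) and 0.000456 (Smad4). They drop out at a p-value of at most 0.0001. In RefSeq no other gene lies within 50 kb of Spry2. The same 4 counts were found at 11 other protein-coding genes, with Ciart, BC028528 and Slc7a6os closest in length.

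Spry4, whose loss likewise gives extra teeth in mice, had mostly distal peaks. It lies on chromosome 18, from 38586247 to 38601347. There were 3 molar and 5 limb pSmad1/5 peaks, and 3 molar and 2 limb Smad4 peaks. The limb pSmad1/5 count was the highest of the 9 genes in that list and was reached by 13.3% of protein-coding genes on chromosome 18. Of these 5 peaks 4 scored at least 4, with a highest score of 4.82, against a highest of 3.87 for the 3 molar pSmad1/5 peaks. No pSmad1/5 peak lay inside Spry4: the nearest was 32999 bp from an end in molar and 8816 bp in limb. A molar Smad4 peak of score 4.09 lay inside the gene, 3361 bp from an end. Summits of molar pSmad1/5 and molar Smad4 lay 143 bp apart inside the neighbouring gene Arhgap26. Arhgap26 rather than Spry4 was the nearest protein-coding gene for 1 of 3 molar and 3 of 5 limb pSmad1/5 peaks, and for 1 of 3 molar and 1 of 2 limb Smad4 peaks. Shroom2 was the 1 other protein-coding gene with the same 4 counts.

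The Spred genes, which encode Ras pathway inhibitors related to Sprouty, had fewer pSmad1/5 peaks than any Sprouty gene and had limb Smad4 peaks near their starts. Spred1 (chromosome 2, 117121071 to 117182279, plus strand) had 1 molar and 1 limb pSmad1/5 peak, and 1 molar and 2 limb Smad4 peaks. The limb Smad4 peaks lay 418 bp (score 3.24) and 846 bp (3.44) upstream of its 5′ end, and the limb pSmad1/5 peak 10955 bp upstream (4.15). The molar Smad4 peak was inside the gene, 20599 bp from an end (score 4.41), and the molar pSmad1/5 peak 40521 bp beyond the 3′ end (3.32), nearer to Fam98b. At least 1 peak was found at 66.6% of protein-coding genes on chromosome 2 in molar and 70.9% in limb for pSmad1/5, and at 44.5% in molar for Smad4. Its 4 counts were shared by 31 other protein-coding genes, with Wdr19, Xrra1 and 9830107B12Rik closest in length.

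Spred2 held the highest-scoring peak at any of the 9 genes in the molar pSmad1/5 list. It lies on chromosome 11, from 19924442 to 20024026, on the plus strand. It had 2 molar and 2 limb pSmad1/5 peaks, 0 molar Smad4 peaks and 4 limb Smad4 peaks. The molar pSmad1/5 peaks lay inside the gene, 12800 bp (score 4.34) and 18011 bp (5.67) from its 5′ end. The stronger, at chromosome 11, 19942418 to 19942471, ranked 10 of 1384 molar pSmad1/5 peaks on that chromosome, and 0.428% of the list scored as high (p-value of the peak call 2.58e-09). Limb pSmad1/5 peaks lay 65222 bp inside the gene (3.25) and 2704 bp beyond its 3′ end (3.11). All 4 limb Smad4 peaks lay inside Spred2, and those at 1166 and 1264 bp from the start scored 4.16 and 5.53. The score of 5.53 was reached by 2.56% of the limb Smad4 list and was the highest limb Smad4 score at the 9 genes. Smad4 peaks were found at 51.4% of protein-coding genes on chromosome 11 in molar and 88.01% in limb. The 9 other protein-coding genes with the same 4 counts included Srd5a2, Dynll2 and Ddx27, the closest in length.

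Etv1, Etv4 and Etv5 encode closely related ETS activators that serve as readouts of Fgf signalling, and in mouse limb buds Etv4 and Etv5 keep Shh expression to the posterior margin. No limb Smad4 peak lay at Etv1 or Etv5. Etv1 (chromosome 12, 38780082 to 38870483, plus strand) had 4 molar and 1 limb pSmad1/5 peaks, and 2 molar and 0 limb Smad4 peaks. On chromosome 12, 78.4% of protein-coding genes had a limb Smad4 peak. All 4 of its molar pSmad1/5 peaks scored below 3, from 2.38 to 2.90, under the lowest score listed for limb pSmad1/5 on chromosome 12 (3.002), and the limb peak scored 3.11. A molar peak lay 1428 bp upstream of the 5′ end. Distal summits of molar pSmad1/5 and limb pSmad1/5, 38050 and 38399 bp upstream, lay 349 bp apart. Another 17 protein-coding genes had the same 4 counts, and Raph1, Amn1 and Hnrnpc were closest in length.

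Etv4 (chromosome 11, 101769747 to 101785310) had 3 molar and 2 limb pSmad1/5 peaks, and 1 molar and 2 limb Smad4 peaks. Its strongest peak with a pSmad1/5 antibody was a molar one 3559 bp outside the gene (score 4.32), within the noncoding gene Gm39392. A limb pSmad1/5 peak lay inside the gene 145 bp from an end (score 3.09), the shortest distance to an end of any of the 83 peaks. A limb Smad4 peak lay inside the gene 3215 bp from the other end (score 3.02), and the molar Smad4 peak was 45572 bp away (4.32). Dhx8 was the nearest protein-coding gene for 1 molar and 1 limb pSmad1/5 peak, and Meox1 for 1 limb Smad4 peak. The strand of Etv4 is not in the table used, so these ends are not named as start or stop. Of the 11 other protein-coding genes with the same 4 counts, Serpina10, Armt1 and 2410137M14Rik were closest in length.

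Etv5 (chromosome 16, 22381313 to 22439570, minus strand) had 4 molar and 3 limb pSmad1/5 peaks, and 5 molar and 0 limb Smad4 peaks. The molar Smad4 count was reached by 12.4% of protein-coding genes on chromosome 16, and a limb Smad4 peak was found at 68.6% of them. Of the molar Smad4 peaks 3 lay inside the gene, with scores of 3.36, 3.89 and 4.07, and the other two lay 13691 and 46828 bp upstream, nearer to Dgkg. All 3 limb pSmad1/5 peaks lay inside the gene, and of these the peak 259 bp from the 5′ end (score 3.05, p-value 5.66e-08) was closest to a start. The molar pSmad1/5 peaks were 10434 bp inside the gene (score 2.03) and 9483, 17563 and 35828 bp upstream (3.26, 2.80 and 2.07). Those at 17563 and 35828 bp were nearer to Dgkg. Lrig3 and Rnf180 were the 2 other protein-coding genes with the same 4 counts.

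Dusp6, which encodes a phosphatase for Erk and is a standard readout of Fgf signalling in limb mesenchyme, had the fewest peaks, 3 in all. It lies on chromosome 10, from 99263231 to 99267489, on the plus strand. It had 1 molar and 2 limb pSmad1/5 peaks and 0 Smad4 peaks in either tissue. The molar pSmad1/5 peak lay 1199 bp upstream of the 5′ end (score 4.35), and 5.11% of that list scored as high. The p-value of its peak call was 0.000873, so the peak drops out at a p-value of at most 0.0001. A limb pSmad1/5 peak lay 1560 bp upstream (score 3.23), with its summit 361 bp from the molar one, and the other was 2034 bp beyond the 3′ end (3.75). Smad4 peaks were found at 86.7% of protein-coding genes on chromosome 10 in molar and 77.6% in limb. The same 4 counts were found at 40 other protein-coding genes, of which Aplnr, Ccl6 and Sox14 were closest in length.

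**Figure D3:**
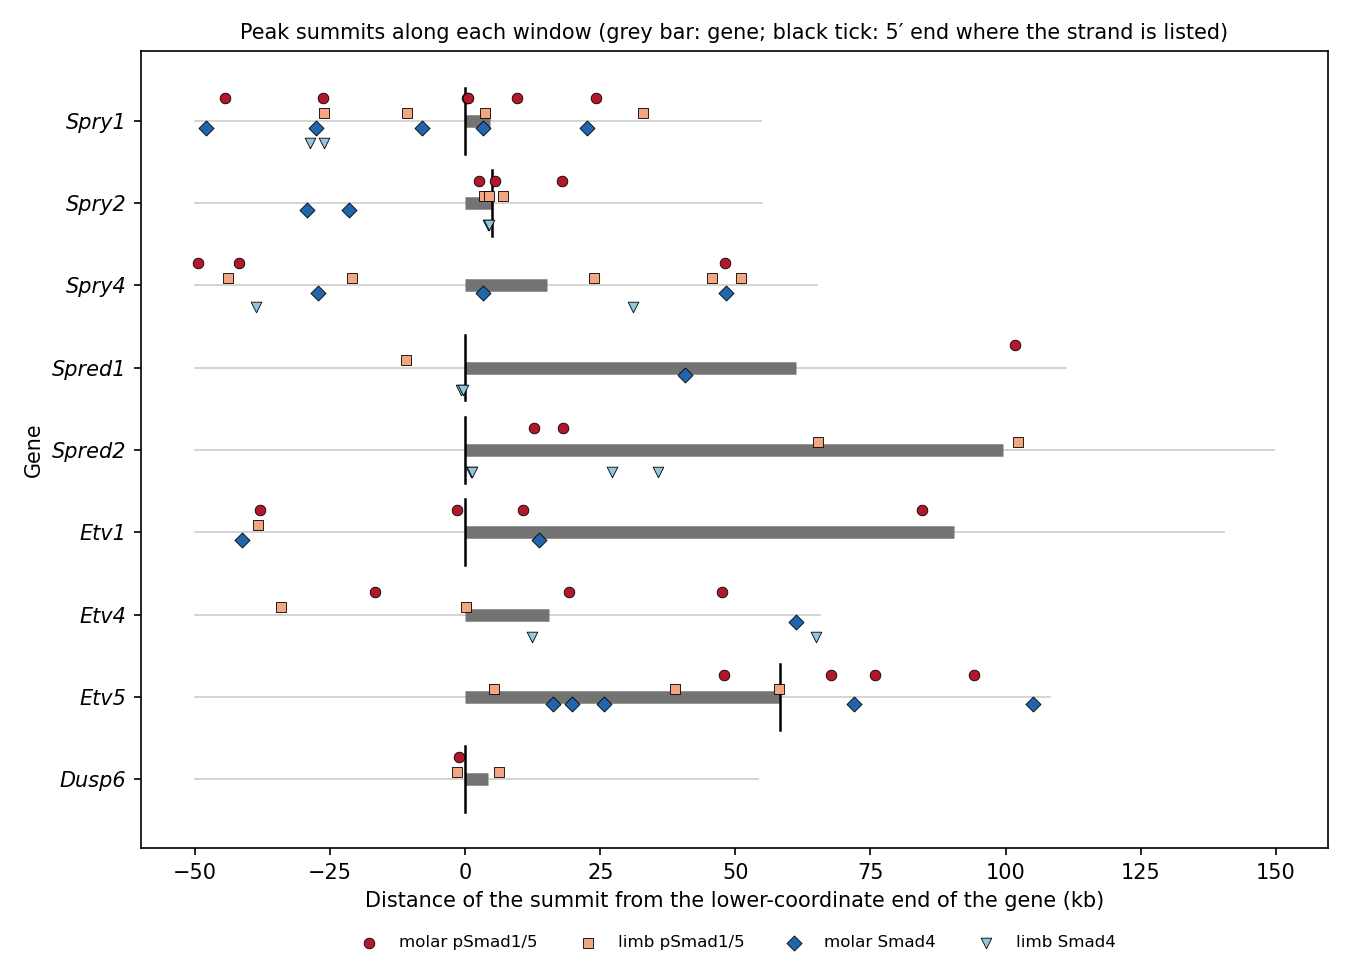
Summits of the 4 lists along each window, as distance in kb from the lower-coordinate end of the gene (horizontal axis), with the 9 genes down the page, a grey bar for the gene and a black tick at its 5′ end where the strand is listed. Peaks gather at the start of Spry2, and the peaks of Spry4 are mostly far from the gene. Just upstream of Dusp6 lie a molar and a limb pSmad1/5 summit.

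Peaks at gene ends were looked at separately, since a summit within 1 kb of an end is the clearest assignment to a gene. There were 10 such peaks, at Spry1, Spry2, Spred1, Etv4 and Etv5, that is at 5 of 9 genes, where 44.9% of protein-coding genes had such a peak in any list. For pSmad1/5 they lay at 2 of 9 genes in molar (20.7% of protein-coding genes) and 3 of 9 in limb (15.5%). For Smad4 they lay at 0 of 9 genes in molar (7.76% of protein-coding genes) and 2 of 9 in limb (21.8%). The peaks just inside this limit lay at 846 bp (Spred1, limb Smad4) and 715 bp (Spry2, molar pSmad1/5), and those just outside at 1077 bp (Spry1, limb pSmad1/5), 1166 bp (Spred2, limb Smad4) and 1199 bp (Dusp6, molar pSmad1/5). None of the 10 scored 4 or more. At the 50 kb limit, the outermost peaks counted lay 49464 and 49377 bp away (Spry4 and Etv4) and the first ones left out 54137 and 54623 bp away (Spry4 and Spred2).

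Start windows (250 bases before to 50 after a start) of 7 of the 9 genes were in the RefSeq table, in 9 windows, and no peak of the 4 lists fell inside any of them. GGCGCC, a site of BMP-activated Smads, was found in windows of Spred1, Spred2 and Etv5 and in 11.9% of all start windows, counting both strands. CAGAC was in none of the 9 windows. Neither was the ETS core CCGGAAG. GTCTAGAC, a palindromic Smad site, was also in none of them and was in 0.213% of all start windows. The windows of Spred1 and Etv5 are shown because they hold this motif and because a peak lay next to them. The limb Smad4 peak lay 153 bp from the Spred1 window (chr2:117120821-117121120, plus strand), and the limb pSmad1/5 peak 177 bp from the Etv5 window (chr16:22439521-22439820, minus strand). Capitals mark the motif.
Spred1: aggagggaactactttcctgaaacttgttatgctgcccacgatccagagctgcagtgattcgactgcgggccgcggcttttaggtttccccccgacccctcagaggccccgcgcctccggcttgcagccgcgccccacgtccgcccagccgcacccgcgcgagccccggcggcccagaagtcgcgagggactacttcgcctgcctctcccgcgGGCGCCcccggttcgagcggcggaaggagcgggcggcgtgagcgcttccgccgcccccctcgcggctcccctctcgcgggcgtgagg
Etv5: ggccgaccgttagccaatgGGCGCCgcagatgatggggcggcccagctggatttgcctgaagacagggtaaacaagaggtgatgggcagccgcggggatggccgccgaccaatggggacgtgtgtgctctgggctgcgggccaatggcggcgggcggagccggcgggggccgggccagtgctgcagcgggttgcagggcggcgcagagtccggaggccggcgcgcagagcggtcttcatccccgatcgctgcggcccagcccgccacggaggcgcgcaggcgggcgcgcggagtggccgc
In these windows 72.3% of bases (Spred1) and 74.0% (Etv5) were G or C, against a median of 52.7% over all start windows.

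Sites where different lists came close were few. Summits of different lists lay within 500 bp of each other in 9 pairs, on 6 sites at 5 of the genes: Spry1, with its upstream site and a site near the 3′ end, Spry2, Spry4, Etv1 and Dusp6. Between the tissues, 3 of 27 molar and 3 of 23 limb pSmad1/5 peaks had a pSmad1/5 summit of the other tissue in this range (11.1% and 13.0%), against 4.82% and 7.14% over the whole lists. For Smad4, 0 of 19 molar and 0 of 14 limb peaks did, against 2.56% and 3.10%. Sharing was counted in both directions, since the lists differ in length. Between the antibodies in molar, 1 of 27 pSmad1/5 peaks and 1 of 19 Smad4 peaks had such a partner (3.70% and 5.26%), against 3.01% and 3.02%. In limb, 2 of 23 pSmad1/5 peaks and 3 of 14 Smad4 peaks had one (8.70% and 21.4%), against 13.1% and 10.8%. Across the tissues with different antibodies, 1 of 27 molar pSmad1/5 peaks and 1 of 14 limb Smad4 peaks had a partner (3.70% and 7.14%), against 7.33% and 8.83%. Likewise 1 of 19 molar Smad4 peaks and 1 of 23 limb pSmad1/5 peaks had one (5.26% and 4.35%), against 1.93% and 2.90%. These shares rest on 1 to 3 peaks each, and no difference from the whole lists was tested.

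By the stricter rule of a shared base the lists had almost nothing in common at these genes, and little over the genome. Apart from the molar pSmad1/5 and limb Smad4 pair upstream of Spry1 (1.92% of molar pSmad1/5 and 2.29% of limb Smad4 peaks over the whole lists), the count was 0 in the other 5 pairs of lists. Over the whole lists, 1.11% of molar and 1.70% of limb pSmad1/5 peaks overlapped one of the other tissue, and 0.443% of molar and 0.518% of limb Smad4 peaks did. Within molar, 0.589% of pSmad1/5 and 0.608% of Smad4 peaks overlapped a peak of the other antibody. Within limb, 4.85% of pSmad1/5 and 3.83% of Smad4 peaks did. Between molar Smad4 and limb pSmad1/5 the shares were 0.281% and 0.415%. Peaks were narrow, with median widths at the 9 genes of 58 bp (molar pSmad1/5), 53 bp (limb pSmad1/5), 51 bp (molar Smad4) and 53.5 bp (limb Smad4).

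Scores at the 9 genes ran from 2.03 to 5.67. Median scores were 3.11 in molar and 3.72 in limb for pSmad1/5, against 2.9995 and 3.44 over the whole lists, and 3.53 in molar and 3.45 in limb for Smad4, against 3.38 and 3.53. A score of at least 4 was reached by 4 of 27 molar and 7 of 23 limb pSmad1/5 peaks (14.8% and 30.4%, against 9.96% and 20.4% over the whole lists). For Smad4 it was reached by 7 of 19 molar and 4 of 14 limb peaks (36.8% and 28.6%, against 20.9% and 25.6%). Etv1 was the 1 gene with no peak of score 4 or more in any list. Molar pSmad1/5 peaks of such a score lay at 3 of 9 genes, Spred2, Etv4 and Dusp6, against 27.8% of protein-coding genes. Limb pSmad1/5 peaks of such a score lay at 4 of 9 genes, Spry1, Spry2, Spry4 and Spred1, against 34.3%. The number of genes with both was 0 of 9, where 15.1% of protein-coding genes had both, so with 9 genes nothing is read from it. Molar Smad4 peaks of that score lay at 6 of 9 genes, against 39.0% of protein-coding genes, and limb Smad4 peaks at 2 of 9, Spry1 and Spred2, against 43.4%. On chromosomes 2 and 11 every listed molar Smad4 peak scores above 4. The molar Smad4 peaks at Spred1 and Etv4, which are among these, thus pass the limit by the lowest score listed there.

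**Figure D4:**
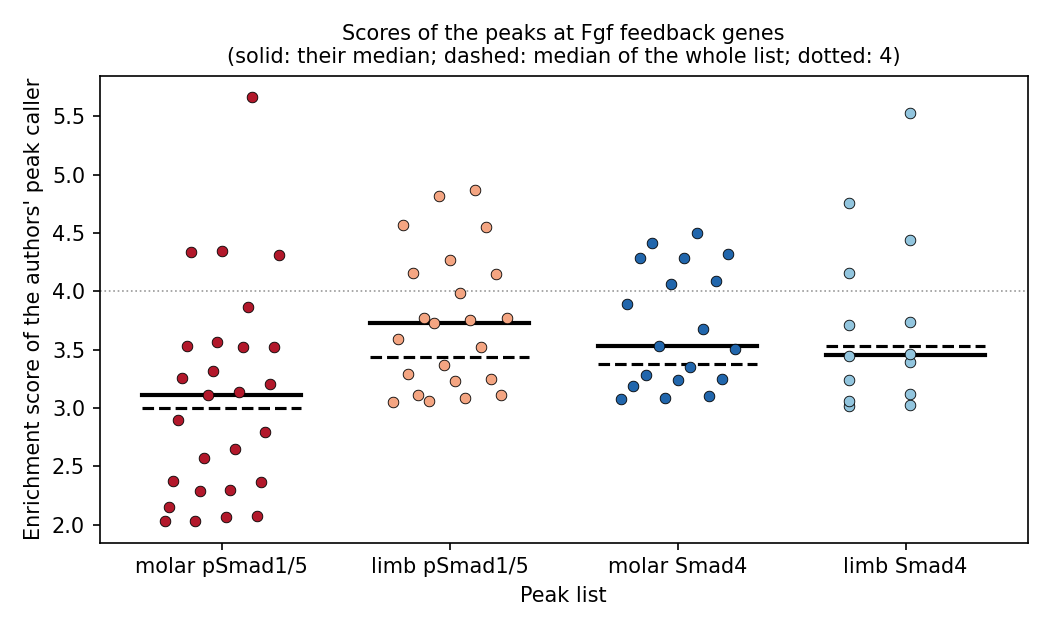
Enrichment score (vertical axis) of each peak at the 9 genes, by list (horizontal axis), molar before limb; solid lines are their medians, dashed lines the medians of the whole lists, and the dotted line a score of 4. The highest point is the molar pSmad1/5 peak inside Spred2 (5.67), and scores below 3 occur in the molar pSmad1/5 list only.

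The direction between the tissues depended on which peaks were counted. As deposited, molar exceeded limb by 4 pSmad1/5 peaks and by 5 Smad4 peaks over the 9 genes. With equal numbers of top-scoring peaks taken per chromosome the pSmad1/5 difference was -5, from 14 molar and 19 limb peaks, and among peaks that scored 4 or more the difference was -3, from 4 and 7. The Smad4 difference was 7 with equal numbers per chromosome, from 13 molar and 6 limb peaks, and -1 within 10 kb of the genes, from 8 and 9. A tissue direction over these genes therefore cannot be given for either antibody.

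Other genes of the Fgf pathway, 40 receptors, adaptors, kinases and nuclear factors, had molar pSmad1/5 peaks in 37 cases and limb pSmad1/5 peaks in 36. They had molar Smad4 peaks in 31 cases and limb Smad4 peaks in 36. For pSmad1/5 these are 92.5% in molar and 90% in limb, against 74.9% and 68.0% of protein-coding genes. For Smad4 they are 77.5% and 90%, against 68.0% and 71.2%. In the order molar pSmad1/5, limb pSmad1/5, molar Smad4 and limb Smad4, the median gene of this list had 4.5, 3, 2 and 3 peaks, against 3, 2, 2 and 2 for the 9 feedback genes. A peak within 1 kb of an end in any list was found at 30 of the 40, against 44.9% of protein-coding genes. Peaks at an end in all 4 lists were found at Fgfr1, a receptor, and Ets2, an ETS factor, and in 3 lists at genes that include Fgfrl1, a receptor without a kinase domain, Gab1, an adaptor, and Il17rd. Il17rd, a membrane inhibitor of Fgf signalling, had 9 molar and 1 limb pSmad1/5 peaks, and 4 molar and 4 limb Smad4 peaks. It lies on chromosome 14, where scores from 2 upwards are listed for molar pSmad1/5. Of 10 BMP feedback and target genes (the Id genes, Smad6, Smad7, Bambi, Nog, Msx1 and Msx2), 10 had molar and 7 limb pSmad1/5 peaks, and 10 had molar and 8 limb Smad4 peaks. The shares of all protein-coding genes given above are the background for these counts too. The difference between these lists was not tested, and gene length and crowding were not taken into account.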

How the data were processed

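Peaks were called by the authors in each library with the TF mode of BCP, per the labels. The submitters' processing notes give the build mm10 and name, without versions, bcl2fastq and bedtools, SAMtools, deepTools and Bowtie2. Not given in the sources used here are the use of the inputs as controls and the treatment of duplicate reads. Each peak has a deposited enrichment score and a deposited p-value, both from the authors' caller. The score was used to rank peaks inside each list. The same score limit was also applied to every list, and some molar and limb scores were set side by side. The lowest listed scores differ between lists and chromosomes, and whether scores share a scale across lists was not tested. Comparisons of scores across lists are therefore descriptive. The deposited p-value was used as a filter in 1 alternative setting and as a description. The lists are all that was used, and their depth is unknown.

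Gene ends came from RefSeq on GRCm38.p6, and start windows and strands from its promoter table. Starts in the lists were read as counted from 0 and are printed counted from 1. Chromosome density used the highest peak end of any list as the chromosome's length. All protein-coding genes of the table gave the background shares. No p-value was computed, since each group has 1 library. Alternatives were a score of at least 4, a p-value of at most 0.0001, equal numbers of top-scoring peaks per chromosome, windows of 10 and 100 kb, and other overlap rules. Ratios to density, and their settings, were added after seeing the data. The members and gene lists were chosen with earlier results of these data known. By rule, the text names all 9 genes, their peaks within 1 kb of an end, their highest-scoring and coinciding peaks, up to 3 genes with the same 4 counts, and up to 6 other pathway genes with peaks at an end in at least 3 lists, of which 1 is not reported here. Counting was tested on simulated data. The scripts ran in Python 3.11.15 with scipy 1.17.1, numpy 2.4.6, pandas 2.3.3 and, for plots, matplotlib 3.10.9.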

Additional observations from a re-analysis of the deposited data

Results flagged for a closer look

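At Spred2 and Etv5 the sign of the pSmad1/5 minus Smad4 peak count was opposite in the tissues. At Spred2 it was 2 in molar (2 pSmad1/5 and 0 Smad4 peaks) and -2 in limb (2 and 4), a contrast of 4 between molar and limb. The molar Smad4 list is sparse on its chromosome, with 555 peaks against 2566 in limb. At Etv5 it was -1 in molar (4 pSmad1/5 and 5 Smad4 peaks) and 3 in limb (3 and 0), a contrast of -4. On its chromosome there were 2473 molar and 787 limb pSmad1/5 peaks, and 1198 molar and 943 limb Smad4 peaks. With 1 library per group these differences were not tested. The share of all protein-coding genes with opposite signs was not counted, so the sign change is not read as a trait of these genes.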

How the results depend on the processing

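The number of genes with a peak stayed within 1.5 times the reported number under a p-value of at most 0.0001 and in windows of 10 and 100 kb. Among scores of 4 or more the number was 3 for molar and 4 for limb pSmad1/5 and 2 for limb Smad4, while the share of protein-coding genes with a peak was 27.8%, 34.3% and 43.4%. With equal numbers of peaks per chromosome it was 3 for limb Smad4, against 58.0% of protein-coding genes. Genes with a peak within 1 kb of an end numbered 0 with a score of at least 4 and 3 with equal numbers. The share of all protein-coding genes was not counted for these settings, so nothing about these genes is read from either number. In the order molar pSmad1/5, limb pSmad1/5, molar Smad4 and limb Smad4, peaks numbered 4, 7, 7 and 4 with a score of at least 4, and 14, 13, 8 and 9 within 10 kb. Within 100 kb there were 36 limb pSmad1/5, 37 molar Smad4 and 26 limb Smad4 peaks. With a p-value of at most 0.0001 there were 16 molar and 13 limb pSmad1/5 and 8 limb Smad4 peaks, and with equal numbers 14 molar pSmad1/5 and 6 limb Smad4 peaks. Molar minus limb for pSmad1/5 was -3 among scores of 4 or more, -5 with equal numbers and 1 within 10 kb. For Smad4 it was 3 among scores of 4 or more, -1 within 10 kb and 11 within 100 kb. The cause was not tested. The 1 overlapping pair became 0 with a score of at least 4, a p-value of at most 0.0001, equal numbers or a reciprocal overlap of at least 50%, and 9 with summits within 500 bp. The ratio to chromosome density was 2.11 for molar pSmad1/5 with a score of at least 4, where 4 peaks remain. Against windows of protein-coding genes it was 0.914 for molar and 1.02 for limb pSmad1/5 and 0.447 for limb Smad4. No paired analysis was possible because each group has 1 library, and for the same reason no replicate could be left out. The unknown depth limits any reading of a missing peak as missing binding.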

Other observations

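Relatives of these genes outside the feedback set, 14 in all (Spry3, Spred3, Etv2, Etv3, Etv6 and 9 Dusp genes), had molar pSmad1/5 peaks in 13 cases and limb pSmad1/5 peaks in 12, and molar Smad4 peaks in 8 and limb Smad4 peaks in 13. In the same order, 74.9%, 68.0%, 68.0% and 71.2% of protein-coding genes had a peak. Peaks within 1 kb of an end in any list were found at 10 of the 14, against 44.9% of protein-coding genes. The following were chosen after their values were seen. Etv3, an ETS factor, had 7 molar and 6 limb pSmad1/5 peaks, and 3 molar and 11 limb Smad4 peaks, with peaks at an end in 3 lists. Dusp8, a phosphatase of the same family as Dusp6, had 5 pSmad1/5 peaks in each tissue and 13 molar and 2 limb Smad4 peaks. Dusp1, another phosphatase of this family, had 4 molar and 5 limb pSmad1/5 peaks, and 0 molar and 7 limb Smad4 peaks. No difference between these genes and the feedback genes was tested.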
